A study of Homo sapiens with 6 samples.

Results

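A set of 10 genes of cytokine signalling was followed in THP-1 cells after NFIC knockdown (KD). They are the kinases JAK1 and JAK2, the transcription factors STAT3, STAT5A, STAT5B and STAT6, and the inhibitors SOCS1, SOCS2, SOCS3 and CISH, found by gene name in a table of read counts, which held 10 of the 10 among its 33981 genes. THP-1 is an established monocytic line from a human acute myeloid leukemia. Lentiviral vectors with GFP delivered either a scrambled shRNA (3 samples) or an shRNA against NFIC (3 samples), and cells sorted for GFP after 4 days were sequenced as bulk RNA. The groups are called scrambled controls and NFIC KD, and values are listed in the order of replicates 1, 2 and 3. The labels call the control vector scrambled shRNA, and the study's results also name these controls scrambled. The study's methods for these samples describe the vector as GFP only, and the name of the labels is used here. A single NFIC shRNA was used in a single cell line, and nothing in the labels says that replicates came from separate cultures, so that p-values measure the spread between these samples, which may be technical. In bulk RNA, fewer cells of a type and less RNA per cell cannot be told apart.

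Many cytokines, among them interferons, many interleukins and GM-CSF, bind receptors that have no enzyme activity of their own. The receptor chains carry JAK kinases, which phosphorylate the receptor and then the STAT proteins docked on it, and STAT dimers enter the nucleus and bind DNA. Proteins of the SOCS family, which includes CISH, are induced by STATs and close the loop by blocking the kinase or the receptor or by marking them for degradation. In myeloid cells this pathway relays survival, proliferation and differentiation signals.

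STAT dimers bind the palindrome TTCNNNGAA, and CISH is a textbook STAT5 target that rose in these data, so the start of CISH is shown with that motif marked. The window runs from 250 bases before the RefSeq start site of CISH to 50 bases into the transcript, at chr3:50611725-50612024 of GRCh38.p14 on the minus strand, and matches to TTCNNNGAA are in capitals.

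CISH: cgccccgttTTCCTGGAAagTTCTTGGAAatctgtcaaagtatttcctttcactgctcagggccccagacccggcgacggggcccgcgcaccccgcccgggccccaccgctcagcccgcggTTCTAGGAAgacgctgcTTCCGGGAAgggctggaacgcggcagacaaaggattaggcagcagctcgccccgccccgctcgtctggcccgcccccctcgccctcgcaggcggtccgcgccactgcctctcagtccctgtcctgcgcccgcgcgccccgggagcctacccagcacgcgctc

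The CISH window holds 4 matches, TTCCTGGAA, TTCTTGGAA, TTCTAGGAA and TTCCGGGAA, which begin at positions -241, -230, -129 and -112 from the start site. The motif reads the same on both strands. Among all 35116 RefSeq windows of 300 bases, 7.66% held at least 1 match, and 7 windows held 4 or more. RefSeq windows were found for 9 of the 10 genes, 17 windows in all because some genes have several start sites, and SOCS2 had no entry. Apart from that of CISH, none of these 17 windows held the motif. TTGGC, the core of the sequence that NFI proteins recognise, was present on either strand in 8 of the 17 windows, which belong to JAK2, STAT3, STAT5A, STAT6 and SOCS3, and in 45.6% of all windows. Such matches describe the letters of the window and not the binding of a factor.

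The target of the knockdown was checked in every sample. NFIC had 42.1, 41.4 and 42.2 CPM (read counts as a rate of the library, scaled by TMM factors) in the scrambled controls, compared with 19.4, 22.3 and 21.4 CPM in the NFIC KD samples, so that 50.1% of its control level remained (log2 fold change -0.99, adjusted p = 3.73e-09 from edgeR). Total counts lay between 20369543 and 24809720 per sample, and a floor of 3 counts corresponds to 0.121 to 0.147 CPM. Such limits cover counting error only. On the second principal component of log2 CPM, which carried 7.37% of the variance, scrambled replicate 2 and NFIC KD replicate 3 stood apart from the other 4 samples, and with both of them left out the same 4 of the 10 genes were higher and the same 3 lower. That scrambled replicate is named C3 in the labels and the table, whereas the text of the study names its controls C1, C2 and C4. Of 10 monocyte markers, 9 passed the filter on low counts, and the summed level of the 10 was 1749 to 1875 CPM in scrambled controls against 1845 to 2030 CPM in NFIC KD. CD14, LYZ, ITGAM and CTSS were higher and CD68, CSF1R, CD33 and CD4 lower. FCN1 had at most 6 counts. Summed markers of other cells were low, and in each list every NFIC KD sample lay below every scrambled control. The summed levels in the scrambled and the NFIC KD samples were 1.62 to 1.96 against 0.388 to 0.922 CPM for T cells, with CD3D at 0 or 1 count, and 23.1 to 25.1 against 16.4 to 18.0 CPM for B cells. They were 0.467 to 0.813 against 0.0862 to 0.260 CPM for erythroid cells and 11.3 to 13.8 against 6.98 to 7.93 CPM for megakaryocytes. They were 5.32 to 6.14 against 0.997 to 2.03 CPM for epithelial or packaging cells and 7.68 to 8.73 against 3.25 to 4.01 CPM for fibroblasts. Of these lists, 1 of 6 T cell, 4 of 6 B cell, 0 of 6 erythroid and 3 of 5 megakaryocyte genes passed the filter. So did 1 of 5 epithelial or packaging cell genes and 2 of 5 fibroblast genes. The T cell gene that passed was CD8A. The erythroid sum in scrambled controls was mostly KLF1, with 12, 19 and 8 counts there against 3, 2 and 2 in NFIC KD, at or below the floor. Single genes did not all follow the sum of their list. For example, GP1BA of the megakaryocyte list was at 4.25 CPM in scrambled controls and 4.90 CPM in NFIC KD, and was not called. The part of these markers in the results below was not tested.

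Of the 10 genes, 4 were higher and 3 were lower after NFIC KD, and 3 did not pass the test. JAK2, STAT3, SOCS2 and CISH rose, and JAK1, STAT5A and STAT5B fell. The test was edgeR's quasi-likelihood test over the 19182 genes that passed the filter on low counts, with a Benjamini-Hochberg adjusted p under 0.05 as threshold, and all 10 genes passed that filter. In this comparison 59.9% of all genes tested were called, 29.6% as higher and 30.3% as lower, so that the shares of the 10 genes lie near those of genes at large. The median log2 fold change of the 10 genes was -0.00084, against -0.011 over all genes tested. The groups did not overlap for 7 of the 10 genes and for 65.2% of all genes tested. Among the kinases and among the STAT factors, members rose and members fell, whereas the inhibitors that were called rose.

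**Figure D1:**
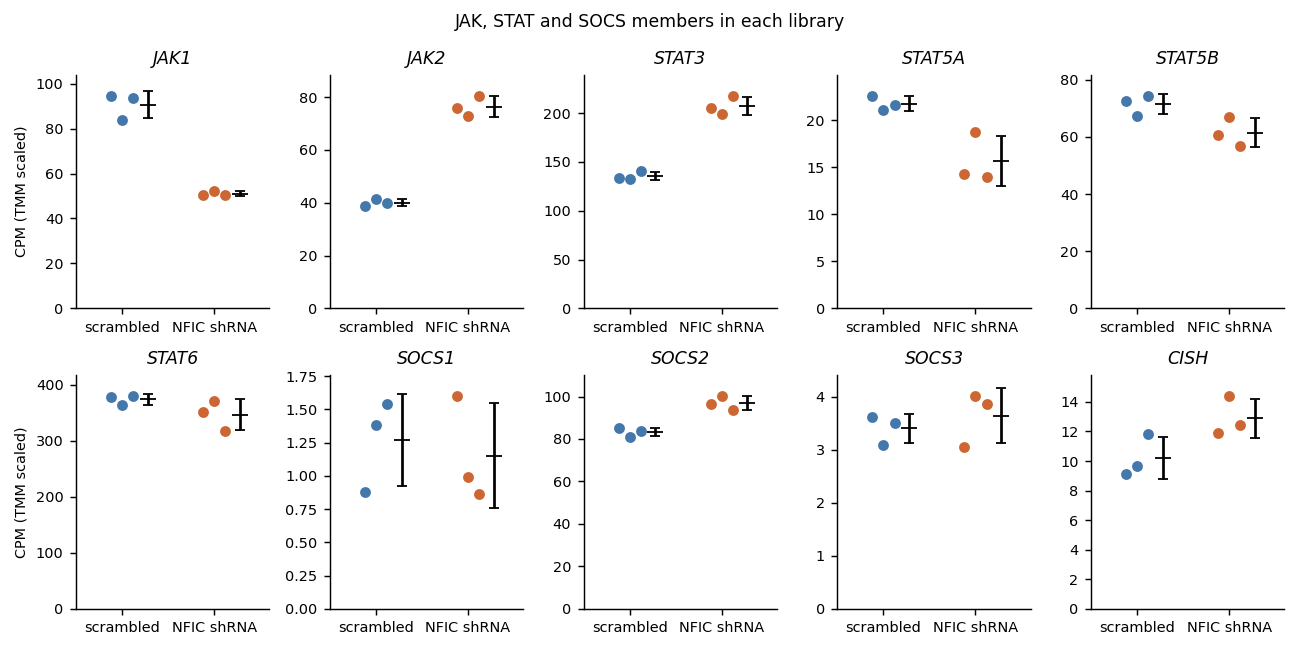
Level of each of the 10 genes in every library, in TMM-scaled CPM on axes that start at 0. Points are the 3 scrambled (blue) and 3 NFIC KD (orange) samples in the order of their replicate numbers, and the black bar is the mean with its SD. JAK1 and JAK2 moved in opposite directions with no overlap, whereas the points of STAT6, SOCS1 and SOCS3 overlap.

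JAK1 and JAK2 moved in opposite directions, and theirs were the largest fall and the largest rise among the 10 genes. JAK1 (ENSG00000162434, chromosome 1 of GRCh38, 64833223 to 65067754) encodes the kinase used by interferon receptors and by receptors that share gp130. It had 94.5, 83.9 and 93.5 CPM in the scrambled controls, compared with 50.3, 52.4 and 50.5 CPM in the NFIC KD samples. Every NFIC KD sample lay far below every scrambled sample, and the 3 NFIC KD values were close together. JAK1 was at 56.3% of its control level, a log2 fold change of -0.83 ± 0.060 (SE), with an edgeR adjusted p of 3.91e-09.

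JAK2 (ENSG00000096968, chromosome 9 of GRCh38, 4984390 to 5129948) encodes the kinase of the receptors for GM-CSF, IL-3 and erythropoietin. It had 38.9, 41.4 and 39.9 CPM in scrambled controls against 76.0, 72.8 and 80.5 CPM in NFIC KD. The lowest NFIC KD sample was well above the highest scrambled sample. JAK2 rose 1.91-fold, to a mean of 76.4 ± 3.88 CPM over 40.1 ± 1.25 CPM (SD, n = 3 per group), with a log2 fold change of 0.93 ± 0.061 (SE) and an edgeR adjusted p of 1.04e-09.

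The balance of the pair can be read within a sample, where no scaling between libraries enters. The log2 ratio of JAK1 counts to JAK2 counts was 1.28, 1.02 and 1.23 in the scrambled controls, compared with -0.60, -0.47 and -0.67 in the NFIC KD samples. The ratio was lower in every NFIC KD sample than in every scrambled control. The difference was -1.76 on the log2 scale (p = 0.1, two-sided exact permutation test, the smallest p that 3 against 3 samples allow, and 0.2 when adjusted over the 4 pairs compared). Per length, JAK1 and JAK2 stood at 7.10 ± 0.456 and 6.42 ± 0.209 FPKM in scrambled controls (SD, n = 3), with overlapping ranges. In NFIC KD they stood at 4.04 ± 0.0918 and 12.4 ± 0.693 FPKM, with ranges far apart.

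STAT3, the factor downstream of gp130 and of the IL-10 receptor, rose. STAT3 (ENSG00000168610, chromosome 17 of GRCh38, 42313324 to 42388540) had 133, 133 and 141 CPM in the scrambled controls, compared with 205, 199 and 218 CPM in the NFIC KD samples. The groups did not overlap, and the gap between them was wider than the range of either. STAT3 rose 1.53-fold, with a log2 fold change of 0.61 ± 0.052 (SE) and an edgeR adjusted p of 2.33e-08.

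STAT5A and STAT5B are close paralogs that relay GM-CSF, IL-3 and other growth factor signals, and both fell. STAT5A (ENSG00000126561, chromosome 17 of GRCh38, 42287547 to 42311943) had 22.6, 21.0 and 21.6 CPM in scrambled controls against 14.3, 18.7 and 14.0 CPM in NFIC KD. NFIC KD replicate 2 was nearer to the scrambled samples than to the other 2 NFIC KD samples. The log2 fold change of STAT5A was -0.47 ± 0.10 (SE), with an edgeR adjusted p of 0.000837, and without NFIC KD replicate 2 it was -0.62.

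STAT5B (ENSG00000173757, chromosome 17 of GRCh38, 42199176 to 42288633) had 72.5, 67.5 and 74.4 CPM in the scrambled controls, compared with 60.6, 67.1 and 56.8 CPM in the NFIC KD samples. Again replicate 2 was the highest NFIC KD sample, and it came within a fraction of 1 CPM of the lowest scrambled sample. STAT5B was at 86.1% of its control level, a log2 fold change of -0.22 ± 0.066 (SE), with an edgeR adjusted p of 0.00979. Without scrambled replicate 3 the value was -0.19 and the call was lost (adjusted p = 0.0518 from edgeR).

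The log2 ratio of STAT5A counts to STAT5B counts was -1.68, -1.68 and -1.78 in scrambled controls against -2.08, -1.84 and -2.03 in NFIC KD. The ratio was lower in every NFIC KD sample than in every control, and the difference was -0.27 (p = 0.1, two-sided exact permutation test, 0.2 when adjusted over the 4 pairs). The genes lie head to head on opposite strands, and their exons in the GENCODE release 44 annotation share 415 bases. Because the counting is not stated to use strand, and because the paralogs are similar in sequence, reads of one could be lost or counted on the other, and the split between them is uncertain to that extent.

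STAT6, the factor of IL-4 and IL-13 signalling, had the highest level of the 10 genes per length. STAT6 (ENSG00000166888, chromosome 12 of GRCh38, 57095408 to 57132139) had 379, 363 and 380.0 CPM in scrambled controls against 352, 371 and 318 CPM in NFIC KD. The groups overlapped, since NFIC KD replicate 2 lay above scrambled replicate 2. The log2 fold change was -0.11 (95% interval -0.23 to 0.010, adjusted p = 0.106 from edgeR), so that a fall of the size seen for STAT5A lies outside the interval. STAT6 passed the threshold as lower with upper-quartile normalization (-0.16, adjusted p = 0.0233 from edgeR) and without NFIC KD replicate 2 (-0.16, adjusted p = 0.0232 from edgeR).

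**Figure D2:**
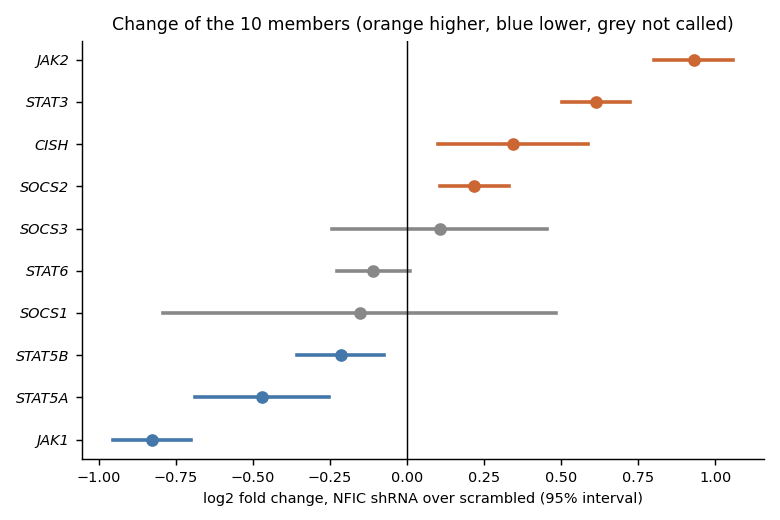
Log2 fold change of each gene, NFIC KD over scrambled controls, with its 95% interval from edgeR (3 samples in each group). Orange genes were higher, blue genes lower and grey genes not called. JAK2 at 0.93 and JAK1 at -0.83 mark the ends, and the interval of SOCS1 is the widest.

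Among the inhibitors, SOCS2 and CISH rose modestly, and the levels of SOCS1 and SOCS3 rested on too few counts for a change of that size to be detected. SOCS2 (ENSG00000120833, chromosome 12 of GRCh38, 93569814 to 93583487) encodes the inhibitor best known for limiting growth hormone signalling. It had 85.0, 81.1 and 83.7 CPM in the scrambled controls, compared with 96.6, 100.2 and 93.7 CPM in the NFIC KD samples. The groups did not overlap, and SOCS2 rose 1.16-fold, with a log2 fold change of 0.22 ± 0.053 (SE) and an edgeR adjusted p of 0.00181.

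CISH (ENSG00000114737, chromosome 3 of GRCh38, 50606489 to 50611774), whose start carries the 4 motif matches shown above, encodes an inhibitor that binds activated receptors. Its counts were 197, 238 and 253 in scrambled controls against 245, 334 and 287 in NFIC KD, or 9.11, 9.67 and 11.8 CPM against 11.9, 14.4 and 12.4 CPM. The highest scrambled and the lowest NFIC KD sample almost touched. CISH rose 1.27-fold, with a log2 fold change of 0.34 ± 0.12 (SE) and an edgeR adjusted p of 0.0165. The call was lost without scrambled replicate 1 (0.26, adjusted p = 0.0941 from edgeR), without scrambled replicate 2 (0.30, adjusted p = 0.0615 from edgeR) and without NFIC KD replicate 2 (0.26, adjusted p = 0.0817 from edgeR). Exons of CISH share 218 bases with those of MAPKAPK3 on the opposite strand, a gene with a mean of 2517 counts whose own log2 fold change was -0.15.

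SOCS1 (ENSG00000185338, chromosome 16 of GRCh38, 11254417 to 11256204) encodes the inhibitor of interferon signalling. It had only 19, 34 and 33 counts in the scrambled controls, compared with 33, 23 and 20 counts in the NFIC KD samples. The values of the groups were interleaved. The log2 fold change was -0.15 (95% interval -0.79 to 0.48, adjusted p = 0.682 from edgeR), an interval that includes changes as large as that of STAT5A.

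SOCS3 (ENSG00000184557, chromosome 17 of GRCh38, 78356778 to 78360077) encodes the inhibitor of gp130 and G-CSF receptor signalling. Its counts were 78, 76 and 75 in scrambled controls against 63, 93 and 89 in NFIC KD. NFIC KD replicate 1 lay below the scrambled samples in CPM, and the other 2 lay above them. The log2 fold change was 0.11 (95% interval -0.24 to 0.46, adjusted p = 0.595 from edgeR). Leaving out 1 sample moved it between 0.034 (without scrambled replicate 2) and 0.22 (without NFIC KD replicate 1), with no call.

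The ratios of the inhibitor pairs did not separate the groups. The log2 ratio of SOCS1 to SOCS3 counts differed by -0.24 between the groups with a pooled SD of 0.590 (p = 0.9, two-sided exact permutation test), and that of SOCS2 to CISH by -0.13 with a pooled SD of 0.163 (p = 0.4). Adjusted over the 4 pairs, these exact permutation p-values were 0.9 and 0.533. Leaving out 1 sample moved the first difference between -0.62 (without NFIC KD replicate 1) and -0.013 (without NFIC KD replicate 3) and the second between -0.23 (without scrambled replicate 3) and -0.033 (without scrambled replicate 1). Whether SOCS2 and CISH changed by the same amount could therefore not be settled at this number of samples.

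The level per length ranked the genes in a similar order in both groups. In scrambled controls the FPKM values were 50.6 for STAT6, 15.2 for STAT3, 12.7 for SOCS2, 10.96 for STAT5B, 7.10 for JAK1, 6.42 for JAK2, 3.73 for STAT5A, 1.97 for CISH, 1.23 for SOCS3 and 0.697 for SOCS1. Every gene was separated from the next by its sample range, except JAK1 from JAK2. In NFIC KD, JAK2 at 12.4 FPKM moved from the sixth to the fourth place, STAT5B at 9.53 FPKM to the fifth and JAK1 at 4.04 FPKM to the sixth, and the ranges of STAT5A and CISH, at 2.72 and 2.52 FPKM, now overlapped. The other genes kept their places.

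**Figure D3:**
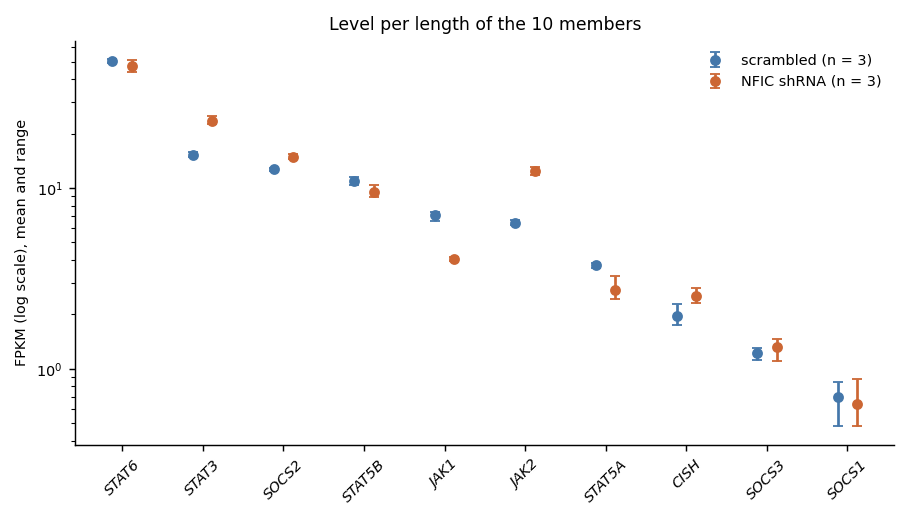
Level per length of the 10 genes in FPKM on a log axis, ordered by the scrambled level. Points are means of 3 samples and bars run from the lowest to the highest sample. JAK2 rises past JAK1 and STAT5B, while STAT6 stays on top and SOCS1 at the bottom.

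The share of each family that its members make up was also computed per length, a description chosen after the values were seen and not tested. TYK2, the family's other broadly used kinase, made up 55.7 ± 0.830% of the summed JAK level in scrambled controls against 53.1 ± 3.50% in NFIC KD (SD, n = 3 in each group). Within the rest, JAK1 went from 21.6 ± 0.752% to 10.8 ± 0.471% and JAK2 from 19.6 ± 1.29% to 33.2 ± 3.45%. The sum over the 4 JAK genes was 32.8 ± 1.08 FPKM and 37.3 ± 1.72 FPKM. JAK1 held the larger share of the pair in 2 of 3 controls, and JAK2 in all 3 NFIC KD samples.

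Among the 7 STAT genes, STAT6 was the largest share, at 42.4 ± 0.547% in scrambled controls against 33.2 ± 1.38% in NFIC KD (SD, n = 3 in each group). STAT3 went from 12.7 ± 0.257% to 16.5 ± 1.42%, STAT5A from 3.13 ± 0.112% to 1.90 ± 0.273% and STAT5B from 9.18 ± 0.156% to 6.67 ± 0.352%. The summed STAT level was 119 ± 4.20 and 143 ± 4.76 FPKM, and the share of STAT3 was higher in every NFIC KD sample than in every control. A share also falls when other members of the family rise. STAT6 itself stood at 50.6 FPKM in scrambled controls and 47.5 FPKM in NFIC KD and was not called. In the SOCS family of 8 genes, SOCS2 held 34.97 ± 0.517% and 36.0 ± 0.856%, and SOCS1 and SOCS3 together with CISH stayed minor shares in every sample.

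Other kinases and factors of the pathway were examined beside the 10 genes. IRF9, a DNA-binding factor of interferon signalling, rose to 38.4 ± 2.78 CPM from 17.9 ± 0.927 CPM (SD, n = 3 per group), that is 2.15-fold (adjusted p = 2.89e-09 from edgeR). STAT2, which acts together with IRF9, had a log2 fold change of 0.56, and STAT4, at a level near 1 CPM, had 0.94. The kinases JAK3 and TYK2 did not pass the test, with log2 fold changes of 0.035 and 0.11.

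Of the other SOCS genes, 2 of 4 rose and 0 fell, with a median log2 fold change of 0.062, beside 59.9% of all genes tested that were called. With upper-quartile normalization 1 of the 4 was higher and 1 lower. SOCS4 had a log2 fold change of 0.42 (adjusted p = 2.15e-05 from edgeR) and SOCS6 had 0.19 (adjusted p = 0.0260 from edgeR). The call of SOCS6 was lost with upper-quartile normalization (adjusted p = 0.108), and without scrambled replicate 2 (0.0590), scrambled replicate 3 (0.0888) or NFIC KD replicate 1 (0.116), or without scrambled replicate 2 and NFIC KD replicate 3 together (0.0513), in each case from edgeR. SOCS5 and SOCS7 had -0.16 and -0.064 and did not pass.

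Of 13 further negative regulators, 6 rose and 2 fell, with a median log2 fold change of 0.15, beside 59.9% of all genes tested that were called. SH2B3, the adaptor that restrains JAK2 signalling in blood cells, rose to 138 ± 1.89 CPM from 85.6 ± 4.13 CPM (SD, n = 3 per group), with a log2 fold change of 0.69 (adjusted p = 6.68e-09 from edgeR). PTPN1 and PTPN6, phosphatases that act on JAK proteins, had log2 fold changes of 0.54 and 0.48. PTPN2, a phosphatase of JAK1 and of nuclear STATs, had -0.37 (adjusted p = 0.000323 from edgeR). USP18, which blocks the type I interferon receptor, had -0.57 (adjusted p = 0.0422 from edgeR). Its call was lost with DESeq2 (adjusted p = 0.172), without the filter on low counts (adjusted p = 0.0691 from edgeR) and in 4 of the 6 fits that left out 1 sample, where the adjusted p from edgeR ran up to 0.162, namely those without scrambled replicate 2 or 3 or NFIC KD replicate 1 or 2.

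Of 35 receptor chains, 26 were tested, 5 rose and 12 fell, with a median log2 fold change of -0.062, beside 29.6% higher and 30.3% lower among all genes tested. IL6ST, which encodes gp130, rose to 76.9 ± 8.08 CPM from 25.2 ± 0.175 CPM (SD, n = 3 per group), with a log2 fold change of 1.61 (adjusted p = 2.34e-11 from edgeR). IL10RA and IFNAR2 had 0.99 and 0.31. IL12RB1 and IL2RB, receptor chains better known from lymphocytes, had -1.01 and -1.42, and the prolactin receptor PRLR had -1.13. Of 30 ligands, 5 passed the filter on low counts, and 4 fell, at log2 fold changes of -0.97 for IL23A, -1.38 for TSLP, -2.21 for IL12A and -1.76 for OSM. IL12A, with 14, 15 and 10 counts in scrambled controls and 4, 3 and 1 in NFIC KD, and OSM, with 19, 18 and 12 against 5, 7 and 2, passed the filter only through the controls, and with at least 10 counts required in every sample 2 ligands fell. IL23A was the most abundant, at 11.7 ± 0.389 CPM in scrambled controls against 5.96 ± 0.761 CPM in NFIC KD (SD, n = 3 in each group).

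Genes known as STAT targets moved both ways. Of 20 targets of STAT3 and STAT5, 18 were tested, 9 rose and 5 fell (OSM among them), with a median log2 fold change of 0.24. The cell cycle inhibitor CDKN1A had a log2 fold change of 0.90, the D-type cyclin CCND3 had 0.93 and the survival gene MCL1 had 0.47, whereas MYC had -1.39, ID1 had -2.02 and CCND1 had -1.24. Of 12 genes listed as targets of STAT6, 8 were tested, 3 rose and 5 fell, with a median of -0.91. CISH, named above as a STAT5 target, was counted in this list and not in that of STAT3 and STAT5. Among all genes tested, 29.6% were higher and 30.3% lower, and the median was -0.011. FCER2, the low-affinity IgE receptor, had 0.64 and ALOX15 had 1.01, whereas F13A1 was at 7.24 CPM against 14.5 CPM in the controls, TGM2 had -1.51 and CCL24 had -2.10. The call of ALOX15, at about 1 CPM, was lost with DESeq2 (adjusted p = 0.0635), and with edgeR without scrambled replicate 3 (adjusted p = 0.0829), without NFIC KD replicate 3 (adjusted p = 0.149) and without scrambled replicate 2 and NFIC KD replicate 3 together (adjusted p = 0.0751). These lists hold general targets, and most of their genes answer to other factors as well.

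**Figure D4:**
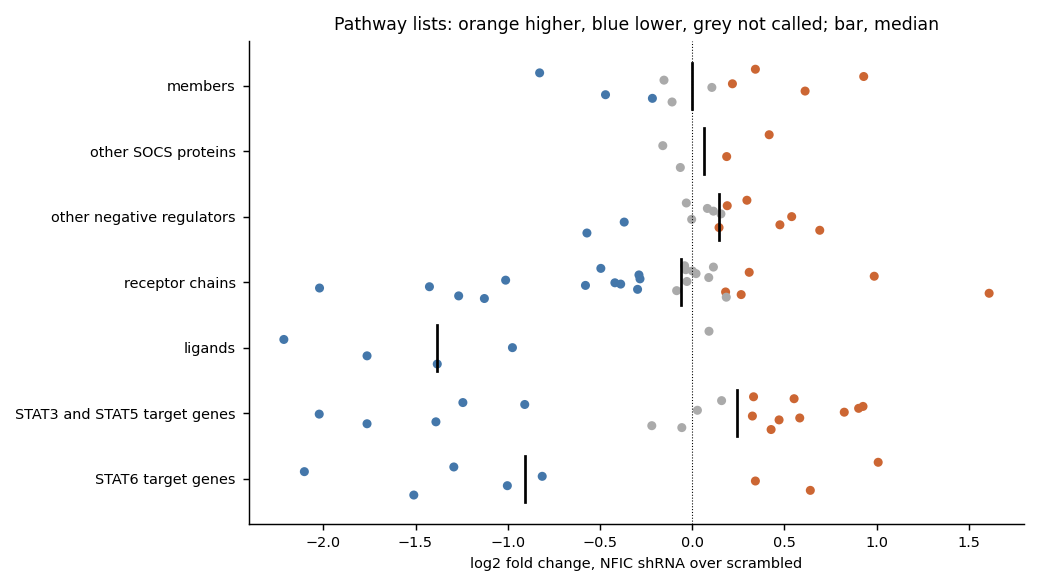
Log2 fold change, NFIC KD over scrambled controls, of every tested gene in the 10-gene set (members) and in 6 other pathway lists. Orange is higher, blue is lower, grey is not called, and the black bar is the median of the list. The ligands lie mostly below 0, and the receptor chains and target genes lie on both sides of it.

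The genes whose profiles over the 6 samples were most like those of JAK2 and JAK1 were found by the Euclidean distance between centred log2 CPM values. For JAK2 they were MIER3, SFMBT1 and DCAF12, at distances of 0.0598, 0.0618 and 0.0643 and log2 fold changes of 0.92, 0.91 and 0.93. For JAK1 they were PTGER4, NAB2 and CASKIN1, at distances of 0.0706, 0.0928 and 0.103 and log2 fold changes of -0.80, -0.87 and -0.82. Exons of NAB2 share 69 bases with those of STAT6 on the opposite strand.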

How the data were processed

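Bulk RNA of 3 scrambled controls and 3 NFIC KD samples of THP-1 cells was sequenced in paired-end reads. The authors state that they trimmed reads (Trim Galore), mapped them to GRCh38 (STAR) and counted them per gene (featureCounts, with an Ensembl annotation of GRCh38). The deposited table gives the raw count per gene and sample. The authors also deposited a normalized signal, each count over its sample's DESeq2 size factor (0.926 to 1.11), its mean over samples, and FPKM values made from it with a total shared by all samples. The authors' own comparison (log2 fold change and its error, score, p-value) was deposited too and was not used. Strand settings and tool versions are not given in the sources used here.

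Raw counts were tested with the quasi-likelihood method of edgeR 4.0.16 in R 4.3.3, after TMM scaling and filterByExpr and with robust dispersions, between NFIC KD and scrambled controls without a block, with Benjamini-Hochberg adjustment over 19182 genes and a threshold of 0.05. Standard errors are the log2 fold change divided by the root of the F statistic. Levels between genes were compared only in FPKM. Positions and exon overlaps are those of GENCODE release 44, on GRCh38 as used by the authors and not the annotation the counts rest on, and promoter windows are those of RefSeq on GRCh38.p14. Depth was 20369543 to 24809720 counts per sample, with 3 counts as the smallest detectable amount. The genes named beyond the 10, NFIC and the markers were, from each pathway list, up to 3 in each direction with the smallest p among those called, and the 3 nearest profiles of the gene that rose most and of the gene that fell most. STAT4, JAK3, TYK2, SOCS5, SOCS7, IL6, OSM and MAPKAPK3 were named after their values were seen. The members and lists were chosen with earlier results of these data known. Alternatives were DESeq2 1.42.0, limma voom (limma 3.58.1), other normalizations, filters and dispersions, each sample left out, replicate blocks, TPM and an added count of 1, and 1 further alternative, leaving out scrambled replicate 2 (C3) and NFIC KD replicate 3 (N3) together, was chosen after seeing the data. The test was tried on simulated data. Some genes of the pathway are not reported here.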

Additional observations from a re-analysis of the deposited data

How the results depend on the processing

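Every call on JAK1, JAK2, STAT3, STAT5A, SOCS2 and NFIC kept its direction and its side of the threshold under all 17 alternatives. Their log2 fold changes ran from -0.89 to -0.80 for JAK1, 0.87 to 0.97 for JAK2, 0.56 to 0.65 for STAT3, -0.62 to -0.39 for STAT5A and 0.16 to 0.25 for SOCS2. STAT6 passed the threshold with upper-quartile normalization (-0.16), with a block on pairs set by sample name (-0.11), and in 1 of the fits that left out a sample, which gave -0.16 to -0.044. Leaving out 1 sample gave 0.26 to 0.45 for CISH (called in 3 of 6 fits), -0.28 to -0.16 for STAT5B (called in 5 of 6), and -0.44 to 0.020 for SOCS1, never called. Without C3 and N3 together, SOCS1 was at 0.084 and SOCS3 at -0.0030, both not called. The cause was not tested. With fewer samples the test also has fewer degrees of freedom. Leaving out 1 sample, 3 to 4 of the 10 genes were higher and 2 to 4 lower. The replicate number of the labels as a block changed none of the 71 results so tested, and edgeR then called 10983 genes against 11486. Same-numbered samples had correlations of 0.056, -0.086 and -0.045 between their deviations from the group means, across genes, so the numbers were not taken to pair them, and not every sample correlated best with its own number. In the pairing tried by sample name, C1 with N1 and C3 with N3 share a number and had correlations of 0.056 and 0.15, and C4 and N2, which share none and were put together as the remaining pair, had 0.027. With the pairing by sample name as a block, edgeR called 12099 genes. Ranks of the FPKM levels were the same in TPM. At 19 to 34 counts, depth limits what can be said of SOCS1.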

Other observations

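Among the NFIC KD samples, replicate 2 kept the most NFIC, at 22.3 CPM against 19.4 and 21.4 CPM. It was also the NFIC KD sample closest to the scrambled mean for JAK1, JAK2, STAT3, STAT5A, STAT5B and STAT6, that is for 6 of the 6 kinases and factors, but not for SOCS1, SOCS2, SOCS3 or CISH, where replicate 1 or 3 was closest. Replicate 1 kept the least NFIC, but among the kinases and factors it lay farthest from the scrambled mean only for JAK1. Replicate 3 lay farthest for JAK2, STAT3, STAT5A, STAT5B and STAT6, so the order of the samples by NFIC was not kept. Over all 11486 genes called, replicate 2 was the closest for 49.5%, replicate 1 for 29.7% and replicate 3 for 20.8%. The samples of a group have no order, and the relation was noticed in these values and not tested.

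IL6ST, which encodes the shared receptor chain gp130, and STAT3, which acts downstream of it, were both higher after NFIC KD, whereas SOCS3, an inhibitor induced by gp130 signalling, had 63 to 93 counts in every sample and did not pass the test. The IL6 ligand had 0 counts in 5 of the 6 samples and 3 counts in NFIC KD replicate 1. Protein levels and phosphorylation of these factors were not analysed here, and whether gp130 signalling changed was not tested.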
